A study of Mus musculus with 2 samples.

Results

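The genes described here encode 49 secreted cytokines, growth factors and chemokines outside the type 2 and Il10 loci, taken from a list of names. The list was drawn up with earlier results of these data known, although no measured value enters the rule. Of the 2537 PPARγ peaks of the series, 7 had one of these genes as the nearest protein-coding transcription start site (TSS) within 100 kb, and they belonged to 6 genes: Ebi3, Lif, Il17a, Il1rn, Tgfb3 and Il12a. The share of listed genes with such an assigned peak was 12.2% (6 of 49, exact 95% binomial interval 4.63 to 24.8), against 7.68% of the 21851 protein-coding genes, so the interval of the list includes the background. The 6 TH1 products and the 7 TH2 and TH9 products on the list, which leaves out IL-4, IL-5 and IL-13, had no assigned peak. The intervals of these small groups (up to 45.9% and 41.0%) include the background too.

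The peaks map PPARγ, a nuclear receptor activated by fatty acid ligands, in mouse TH2 cells made in culture from naive CD4 T cells of strain C57BL/6J. Both libraries of the series, 1 precipitated with a TY1 antibody and 1 input, came from cells given a retrovirus for TY1-tagged PPARγ on days 1 and 2 and harvested on day 4, so the map shows the introduced, tagged receptor and not the receptor the cells make themselves. Of several repeats mentioned by the submitters, 1 was used, so the values have no replicate error. No library without the tagged receptor was used here, and no expression values were analysed, so the TH2 identity of the cells rests on the labels. The ChIP library held 10229438 uniquely mapped tags, with 0.534% of them in peaks at a mean of 21.5 tags per peak; the rows of the peak file carry no strength, and a gene without a peak may hold binding below the detection limit of 8 tags.

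Cytokines are secreted proteins by which T cells and their neighbours instruct each other, and chemokines are the subgroup that guides cell movement. Helper T cells are told apart by what they secrete: TH1 cells make interferon γ, TH2 cells IL-4, IL-5 and IL-13, TH17 cells IL-17, and regulatory T cells suppressive products. PPARγ binds DNA together with RXR at DR1, which is AGGTCA, any 1 base and AGGTCA again, and is known both for turning on lipid genes and for restraining inflammatory cytokine genes in myeloid cells.

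Sequences of 4 of the 7 assigned peaks are shown because they carry a DR1 match, lie at a promoter or touch a DR1 match at the edge. All are mm10 plus strand, 5′ to 3′; capitals mark DR1 matches (up to 2 mismatches in the 12 fixed bases, either strand) and exact copies of the half-site AGGTCA or its complement.
Il17a peak, chr1:20740477-20740649: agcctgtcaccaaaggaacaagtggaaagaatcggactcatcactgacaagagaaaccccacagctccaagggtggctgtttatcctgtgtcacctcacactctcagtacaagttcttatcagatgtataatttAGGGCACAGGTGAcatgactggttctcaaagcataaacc
Il1rn peak, chr2:24318169-24318341: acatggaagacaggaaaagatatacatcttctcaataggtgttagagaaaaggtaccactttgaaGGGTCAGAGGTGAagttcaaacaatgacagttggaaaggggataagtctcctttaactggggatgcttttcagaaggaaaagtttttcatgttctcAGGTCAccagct
Ebi3 peak, chr17:55952632-55952804: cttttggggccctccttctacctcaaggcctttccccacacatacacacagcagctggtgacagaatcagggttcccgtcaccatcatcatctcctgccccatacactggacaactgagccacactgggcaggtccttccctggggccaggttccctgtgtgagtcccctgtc
Lif peak nearer to the TSS, chr11:4263498-4263670: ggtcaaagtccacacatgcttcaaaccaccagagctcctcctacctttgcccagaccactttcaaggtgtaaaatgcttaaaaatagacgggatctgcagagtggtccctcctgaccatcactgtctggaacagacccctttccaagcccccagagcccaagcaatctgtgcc

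Among the subunits of the IL-12 family, Ebi3 and Il12a each had 1 assigned peak. EBI3 pairs with IL-27p28 to form IL-27 and with IL-12p35, the product of Il12a, to form IL-35, a suppressive product of regulatory T cells. The Ebi3 peak was centred 78 bp downstream of the TSS on chromosome 17 and was the 1 promoter peak among the 7 assigned peaks. No DR1 match was found in it, and its closest window differed from DR1 at 5 of the 12 fixed bases, whereas 81.8% of all peaks held a window with 4 mismatches or fewer. The Ebi3 gene sits in a crowded stretch with 11 protein-coding genes within 100 kb of the peak, and the next TSS, that of the zinc finger gene Zfp119b, lay 3.22 kb away. A second peak 20.8 kb upstream of Ebi3 was assigned to Zfp119b. The Il12a peak (chr3:68758727-68758899) was intergenic and 67.4 kb downstream of its TSS. Il12a was the sole protein-coding gene within 100 kb of it, although the start of the noncoding RNA gene 4930535E02Rik lay 2.62 kb from the peak. Its closest window to DR1 had 3 mismatches.

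The other subunits of this family had neighbouring peaks that were nearer to other genes. Il23a, which encodes the p19 subunit of IL-23, a cytokine that sustains TH17 cells, had a peak centre 5.34 kb upstream, but that peak (chr10:128303343-128303515) lay 52 bp from the TSS of Pan2, a gene of mRNA deadenylation. A DR1 sequence with 1 mismatch, AGGGCAaAGGTCA (chr10:128303512-128303524, spacer in lower case), overlapped the end of the Pan2 peak by 4 bases and so did not count as inside it. Il27, which encodes IL-27p28, had a peak 10.5 kb downstream that lay in the promoter region of Cln3 and Apobr, 165 bp from the Cln3 TSS. Il12b, the gene of the p40 subunit shared by IL-12 and IL-23, was 249 kb from its nearest peak. In all, 4 of the 5 genes of this family had a peak centre within 100 kb (interval 28.4 to 99.5%), against 23.5% of all protein-coding genes. An assigned peak was present at 2 of the 5 (interval 5.27 to 85.3%), against 7.68% of all protein-coding genes, and no difference was tested.

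Within the IL-6 family and its relatives, Lif had 2 assigned peaks, which 1.52% of protein-coding genes reached or exceeded. LIF is a cytokine best known for keeping mouse stem cells undifferentiated, and it signals through the shared chain gp130, the product of Il6st. The first Lif peak lay in an intron of the longer Lif transcript, 3.51 kb upstream of the start of the shorter one and 6027 bp from the first start of the gene. The peak contained no full DR1 match, but AGGTCAAAGTCCA (chr11:4263497-4263509, 2 mismatches) began 1 base before the deposited peak. The second (chr11:4297115-4297287) was intergenic, 30.1 kb downstream, and held 1 copy of the half-site but no DR1 match. Osm, the neighbouring gene of the related cytokine oncostatin M, had its TSS 27.2 and 60.8 kb from the same peaks, and the assignment to Lif rests on distance alone.

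The remaining members of that group had no assigned peak. Il31, a TH2 product that drives itch, had a peak 62.8 kb downstream in an intron of Mlxip, a glucose-sensing transcription factor gene. That peak, 87.9% of which was repeat-masked, held the DR1 match TGGTCAGAGGTCA with 1 mismatch (chr5:123419295-123419307), which was the closest match to the consensus in any peak within 100 kb of a listed gene. Clcf1, a ligand of the ciliary neurotrophic factor receptor, had peaks at 78.6 kb upstream (in an exon of Cabp4) and 90.4 kb downstream (in an intron of the receptor kinase gene Grk2, with the DR1 match AGGACAGAGGACA at chr19:4304625-4304637). Il6 and Il11 had their nearest peaks at 119.6 and 256 kb.

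In the IL-17 family, Il17a had 1 assigned peak, 9.66 kb downstream of its TSS in intergenic sequence. IL-17A is the defining product of TH17 cells and acts on epithelium and neutrophil recruitment. The Il17a peak held the DR1 match AGGGCAcAGGTGA with 2 mismatches, centred 54 bp from the peak centre (the capitals in the sequence above). The TSS of Il17f, which encodes the partner of IL-17A in a heterodimer and is read from the opposite strand, lay 43.7 kb from the same peak. For Il17c and Il25, epithelial members of the family, a peak centre lay 39.2 and 39.0 kb away, each in the promoter of another gene: Snai3 in the first case and Pabpn1 in the second. The Snai3 peak was the 1 peak within 100 kb of a listed gene with an AP-1 sequence (TGACTCA on either strand). Il17b and Il17d, at 479 and 1571 kb, had no peak near.

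In the IL-1 family, Il1rn, which encodes the natural antagonist of the IL-1 receptor, had 1 assigned peak 18.6 kb upstream of its nearest TSS. The peak was intergenic, between Il1rn and Il1f10, whose TSS lay 27.1 kb from it, and it was 4.17 kb from the start of the noncoding RNA gene Gm13411. It held the DR1 match GGGTCAgAGGTGA, with 2 mismatches and centred 15 bp from the peak centre, and a separate copy of the half-site near its end. The agonist genes of the same family were farther from any peak: Il1a at 539 kb and Il1b at 600.0 kb, on the same chromosome. Il18, which supports interferon γ production, had a peak 55.7 kb away in an exon of Plet1, and the alarmin gene Il33 was 179.7 kb from its nearest peak.

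Of the TGF-β genes, Tgfb3 had 1 assigned peak, 32.8 kb downstream and beyond the end of the gene, in an intron of the tubulin ligase gene Ttll5 on the opposite strand. TGF-β3 is a growth factor that with IL-6 can drive TH17 cells. The peak (chr12:86046185-86046357) held the half-site once but no DR1 match, its closest window having 3 mismatches. Tgfb1, the main TGF-β gene of lymphocytes, was 300.5 kb from its nearest peak and Tgfb2 1123 kb.

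**Figure D1:**
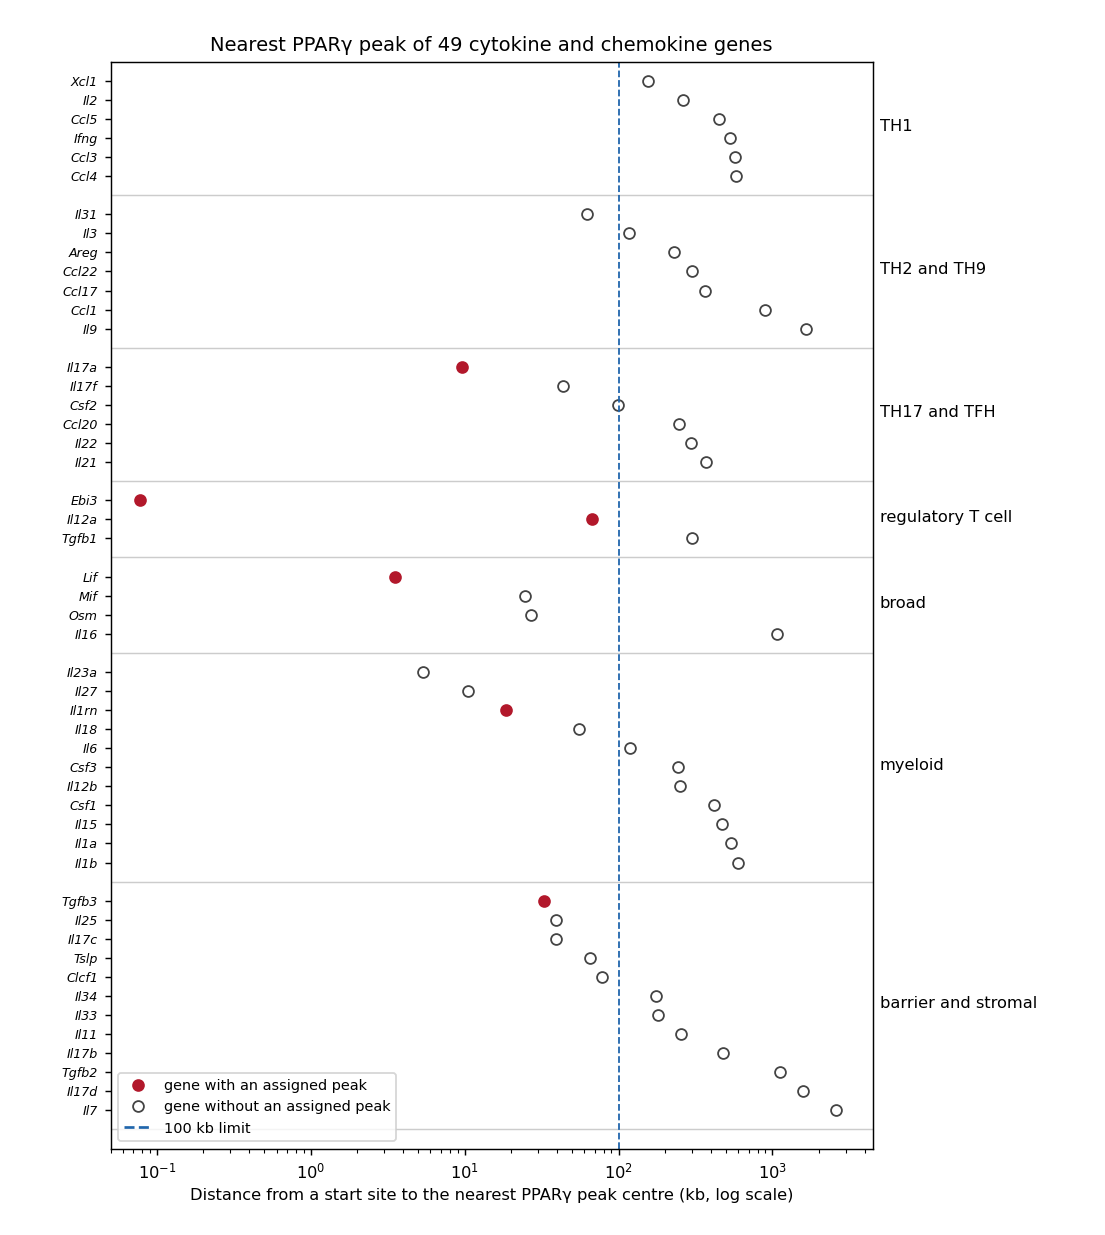
Distance from a TSS of each of the 49 genes to the nearest PPARγ peak centre (kb, log axis), grouped by the source class given to the product. Red points are the 6 genes with an assigned peak and the dashed line is the 100 kb limit. The distances run from 0.078 kb at Ebi3 to 2600 kb at Il7, and the 6 TH1 products all lie beyond 100 kb.

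**Figure D2:**
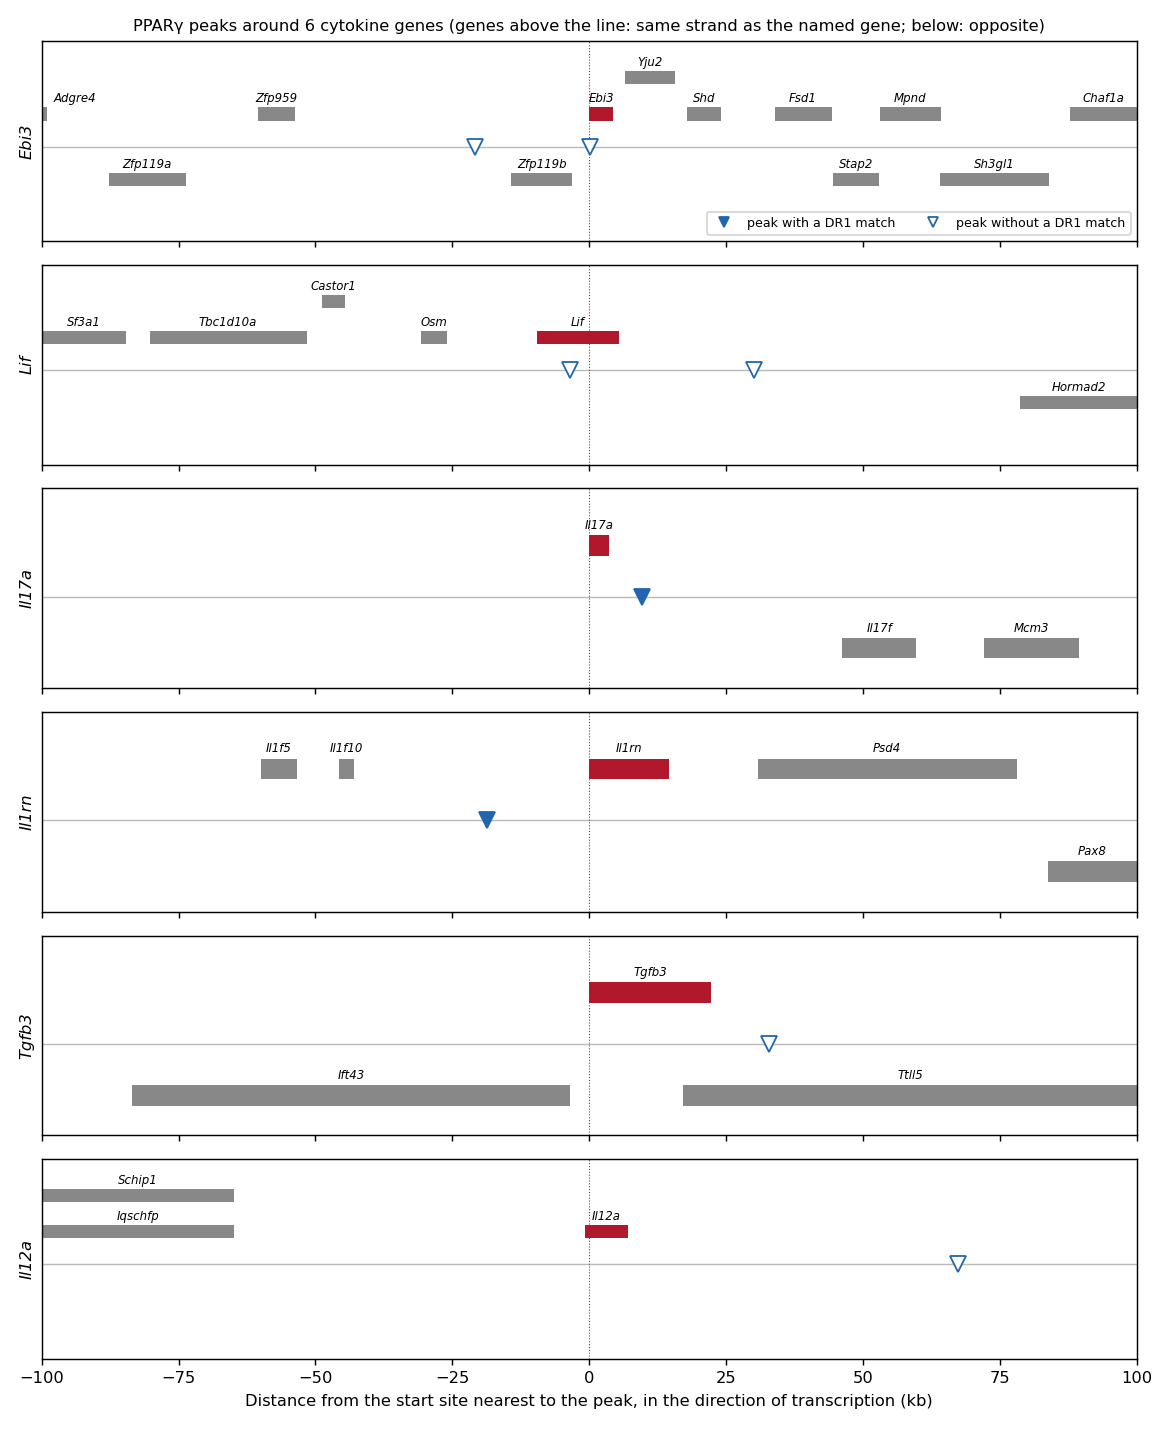
Protein-coding genes (bars; the named gene in red) and peaks (triangles; filled where the peak holds a DR1 match) within 100 kb of the TSS nearest to the assigned peak of 6 cytokine genes, in the direction of transcription of the named gene. The peaks at Il17a and Il1rn hold a DR1 match, and those at the other 4 genes do not.

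The helper subset products were then set side by side. Over all protein-coding genes, 7.68% had an assigned peak and 23.5% had a peak centre within 100 kb. The 95% intervals of the TH1, TH2 and TH17 groups include both values, so the counts of 0 below are not shown to be particular to a subset. Among TH1 products, none of 6 genes had an assigned peak (exact 95% interval up to 45.9%) or a peak centre within 100 kb. The distances were 155 kb for the chemokine gene Xcl1, 264 kb for Il2, the T cell growth factor gene, and 451 kb for Ccl5. They were 530.5 kb for Ifng, the interferon γ gene, 569.9 kb for Ccl3 and 583 kb for Ccl4. Ccl3, Ccl4 and Ccl5 lie in 1 cluster on chromosome 11 and share the same nearest peak, at Slfn2, with Ccl1 of the TH2 and TH9 group. Other genes share a nearest peak too, among them Ifng with Il22, Il2 with Il21, Il3 with Csf2 and Ccl17 with Ccl22. Such genes are not independent observations, although the intervals count each gene separately. Among TH2 and TH9 products, none of 7 genes had an assigned peak (interval up to 41.0%), and Il31 alone was within 100 kb of a peak centre. The list leaves out the genes of IL-4, IL-5 and IL-13, so this count does not cover the defining TH2 products. The mast cell growth factor gene Il3 lay 117 kb from a peak, the epithelial growth factor gene Areg 231 kb and the chemokine genes Ccl22, Ccl17 and Ccl1 298, 363 and 899.7 kb. Il9 lay 1644 kb from its nearest peak. Among products of TH17 and follicular helper cells, 1 of 6 genes (16.7%, interval 0.421 to 64.1) had an assigned peak. The distances were 9.66 kb for Il17a, 43.7 kb for Il17f and 99.5 kb for Csf2, which encodes GM-CSF. Ccl20, Il22 and Il21 followed at 247, 294 and 370.3 kb. Of the 3 products listed for regulatory T cells, Ebi3 and Il12a had an assigned peak (66.7%, interval 9.43 to 99.2) and Tgfb1 did not. That class is a choice: both genes encode subunits of IL-35, but EBI3 is also part of IL-27. Il12b, Il23a and Il27 of the same family were listed as myeloid. No count was made with Ebi3 and Il12a moved to that class. The distances of the TH1, TH2 and TH17 groups overlapped, and the intervals of their shares overlapped as well. No difference between these groups was tested, since 1 library gives no replicate and each group holds 6 or 7 genes.

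Products listed for other sources were counted in the same way. Of 27 such genes 3 (11.1%, interval 2.35 to 29.2) had an assigned peak, against 3 of the 22 helper and regulatory T cell products (13.6%, interval 2.91 to 34.9). The latter 3 include Ebi3 and Il12a, so this comparison depends on the class given to them. Within the myeloid products the count was 1 of 11 genes (Il1rn), within the barrier and stromal products 1 of 12 (Tgfb3), and among 4 broadly made products 1 (Lif). Mif, the gene of macrophage migration inhibitory factor, had peaks 24.8 and 91.4 kb away, assigned to Gstt2 and Gm5134. The Gstt2 promoter peak held the DR1 match AGGTAAAAGGGCA (chr10:75835452-75835464, minus strand). Tslp, the alarmin that primes type 2 responses, had peaks at 65.4 and 79.2 kb that were nearer to Wdr36 and Camk4. The colony-stimulating factor genes Il34, Csf3 and Csf1 were 175, 242 and 415 kb from a peak. The common γ chain cytokine genes Il15 and Il7 were 469.8 and 2599 kb away, Il16 lay at 1074 kb, and the 8 chemokine genes on the list lay between 155 and 899.7 kb.

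A peak was near many of these genes without being assigned to them. Of the 49 genes, 18 (36.7%, interval 23.4 to 51.7) had a peak centre within 100 kb of a TSS, against 23.5% of all protein-coding genes, but for 12 of the 18 another gene was nearer to each such peak. Within 10 kb the count was 4 of 49 genes against 4.16%, within 50 kb 12 against 13.9% and within 500 kb 38 against 61.9%. Around the 18 genes lay 21 different peaks. Of these 21 peaks, 7 (33.3%) lay in promoters, against 9.04% of the 2124 peaks within 100 kb of any protein-coding TSS, and 6 of the 7 promoters belonged to genes outside the list (Pan2, Cln3 and Apobr, Gstt2, Pabpn1, Snai3 and Mir6361). The median distance to the nearest peak was 242 kb for the listed genes and 318 kb for all protein-coding genes. A peak can be assigned to a gene only in the stretch of genome where its TSS is the nearest protein-coding one within 100 kb. The median length of that stretch was 92.4 kb for the 6 genes with a peak, 49.4 kb for the 43 without. Over all protein-coding genes it was 97.1 kb with and 44.4 kb without a peak. Ebi3 had 4.8 kb, the shortest of the 49, while Il15 had 201 kb and no peak. The part of this length in the counts was not tested.

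**Figure D3:**
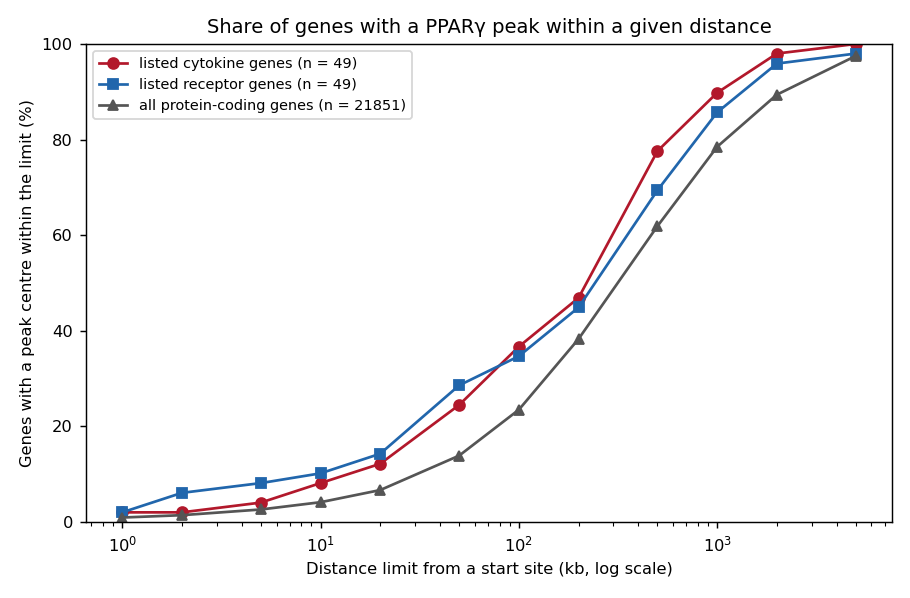
Share of genes (%) with a PPARγ peak centre within a given distance of a TSS (kb, log axis) for the 49 cytokine and chemokine genes, 49 receptor genes and all 21851 protein-coding genes. At 100 kb the shares are 36.7, 34.7 and 23.5%, and the curves of the lists lie above that of all genes at each distance plotted.

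Receptors of the listed proteins, 49 genes listed by name with earlier results known, had assigned peaks at 12 (24.5%, interval 13.3 to 38.9, against the background of 7.68%), with 17 peaks in all. The shares of receptor genes and cytokine genes have overlapping intervals, and the difference was not tested. With assignment set aside the lists were nearly level, 17 receptor genes and 18 cytokine genes having a peak centre within 100 kb. Peaks within 10 kb were assigned to 5 receptor genes and 3 cytokine genes (Ebi3, Lif and Il17a), against 3.38% of all protein-coding genes. The chemokine receptor gene Ccr8, whose ligand is the product of Ccl1, had one at 752 bp, and Il6st, the gene of gp130, had one at 1.28 kb. Il2ra, the gene of the high affinity chain for IL-2, had one at 1.33 kb, Il6ra one at 4.50 kb and Il7r 2 at 6.44 and 6.60 kb among its 4 peaks. Ligand and receptor genes did not pair in one way. Tgfb3 had a peak, as did Tgfbr2 and Tgfbr3 but not Tgfbr1 (258 kb from its nearest peak). Lif had peaks and so did Il6st, but Lifr, the gene of the other chain of its receptor, was 538 kb from one. Il17a and Il1rn had peaks while Il17ra, Il17rc, Il1r1 and Il1r2 had none, and Il2, Il6, Il7 and Ccl1 had none while Il2ra, Il6ra, Il7r and Ccr8 had.

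The sequences of the assigned peaks were compared with those of all peaks. DR1 matches were present in 2 of the 7 (Il17a and Il1rn) and in 18.2% of all peaks, and with 1 mismatch allowed in none of the 7 and in 6.07% of all peaks. A DR1-bearing peak was thus assigned to 2 of the 49 genes, against 1.75% of all protein-coding genes. The half-site AGGTCA occurred in 3 of the 7 (Il1rn, the more distant Lif peak and Tgfb3) and in 25.7% of all peaks. AP-1 sequences occurred in none of the 7 and in 15.6% of all peaks, so no listed gene had an assigned peak with AP-1, against 1.45% of all protein-coding genes. The NFAT core TGGAAA, bound by factors that calcium signalling activates in T cells, occurred in 4 of the 7 (Il12a, Il17a, Il1rn and the nearer Lif peak) and in 16.4% of all peaks. The RUNX letters TGTGGT occurred in 2 of the 7 (the more distant Lif peak and Tgfb3) and in 16.2% of all peaks. The letters AGATAA for GATA factors were found in none of the 7 and in 14.3% of all peaks. The 7 peaks had GC contents between 40.5 and 58.4% (median 49.7%, against 43.4% for all peaks), and none was mostly repeat. With 7 peaks these counts are descriptions, and no enrichment was tested.

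DR1 sequences were nearly as common around all protein-coding genes as around the listed genes, and nearly all of them lay outside peaks. Within 100 kb of a TSS of the 49 genes, 8.82 Mb in all, there were 210 sequences with at most 1 mismatch to DR1 (23.8 per Mb, against 20.6 per Mb within 100 kb of any protein-coding TSS). One of the 210 (0.476%) lay in a peak, the Mlxip peak near Il31, against 0.447% around all protein-coding genes. None of the 20 exact copies near listed genes lay in a peak. At least 1 sequence with at most 1 mismatch was found within 100 kb of 48 of the 49 genes, all but Il6. The median was 4, with up to 9 at Csf2, Il3, Il11 and Xcl1. Counts per gene were not made for all protein-coding genes, so these and the next count are not shown to be particular to the list. For 8 genes one lay within 2.5 kb of a TSS; the pair shown here stands for an exact copy and for the shortest distance among the helper T cell products, and neither lay in a peak.
Near Il9, 2.14 kb from the TSS, chr13:56484379-56484391: AGGTCAcAGGTCA
Near Csf2, 0.626 kb from the TSS, chr11:54249035-54249047: AGGTCAgAGGTCT
Of the 210 sequences 45.2% were in repeat-masked sequence, against 48.5% within 100 kb of any protein-coding TSS. Uniquely mapped reads can be scarce in repeats, and the part of this in the counts was not tested.

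**Figure D4:**
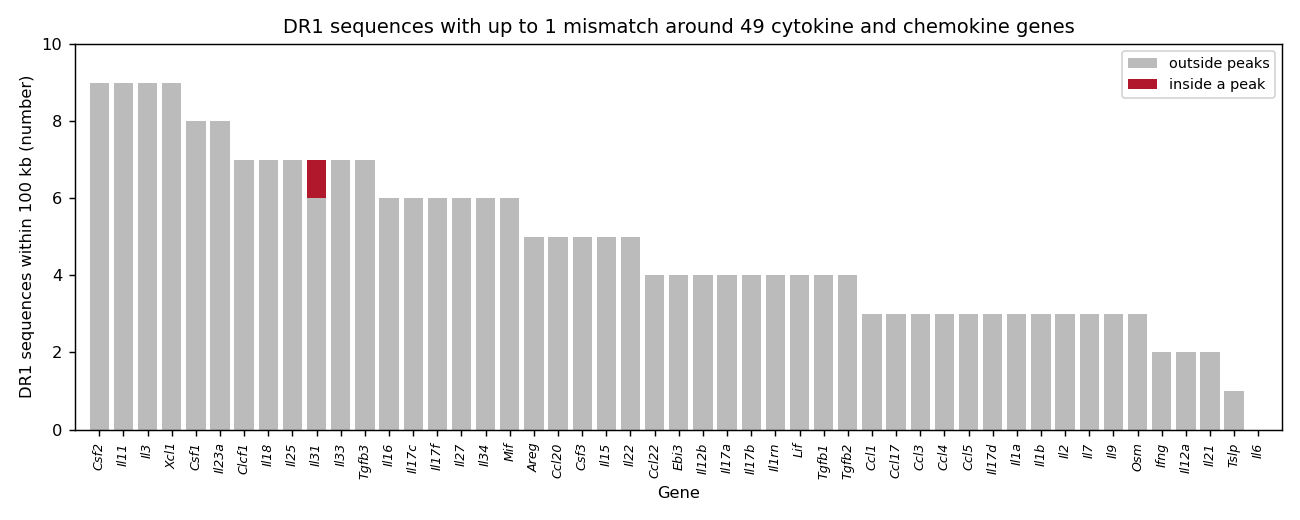
Number of DR1 sequences with up to 1 mismatch within 100 kb of a TSS of each of the 49 genes; grey bars are sequences outside peaks and red bars those inside one. Counts run from 0 at Il6 to 9, and the single sequence inside a peak is near Il31.

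Promoter sequences (300 bases spanning a gene start, RefSeq, GRCm38.p6) were available for 35 of the 49 genes, with 42 promoters. One peak overlapped any of them, the Ebi3 peak, by 41 bases. A DR1 match with up to 2 mismatches occurred in 1 of the 42, that of Ccl22 (AGGTCAtAGAACA, chr8:94745442-94745454, spacer in lower case), or 2.38%, against 3.86% of all 32851 promoters. Of the 9 other sequences searched, 7 were in a larger share of these promoters than of all promoters and 2 in a smaller one. The NFAT core (letters as in the peaks above, like those of AP-1, RUNX and GATA) occurred in 42.9% against 21.4%, AP-1 in 16.7% against 5.2%, and the NF-κB letters (GGGA, any base, TTTCC) in 3 promoters (Csf1, Il16 and Il6), or 7.14% against 0.411%. The half-site occurred in 28.6% against 16.3%, RUNX in 23.8% against 16.8%, and the T-box core in 2 promoters, or 4.76% against 1.28%. GATA was nearly level, at 11.9% against 11.2%. The STAT core occurred in 7.14% against 8.3%, and the ETS core in 1 promoter, or 2.38% against 3.58%. These are counts over 42 promoters, and no enrichment was tested. These promoters had no peak apart from that of Ebi3, whose printed peak holds none of the sequences searched.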

How the data were processed

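One ChIP library (TY1 antibody) and 1 input library of TH2 cells formed the series. The authors aligned reads to mm10 with Bowtie2 (mm10, Bowtie2 and HOMER are also named per the submitters' processing notes), kept uniquely mapped tags and called peaks with HOMER against the input, by the series' design text. Per the file headers, a peak needed 8 tags (false discovery rate 0.001) and a 4-fold excess over the input and over the surrounding 10000 bp. The score in the deposited file is 1 in each row, so it ranks no peak. Peak positions (mm10) are the deposited ones, given here 1-based.

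Each peak went to the nearest transcription start site (TSS) of a protein-coding transcript (GENCODE vM21 basic set, mitochondrial genes left out) within 100 kb of its centre. Promoters run from 1000 bp upstream to 100 bp downstream of a TSS of any annotated gene. Motifs were searched on both strands of the 173 bp peaks in GRCm38 sequence. With 1 library there is no test, and intervals are exact binomial (Clopper-Pearson) at 95% for counting error only. All listed genes with an assigned peak are named, as are listed genes with another gene's peak within 100 kb and receptor genes with a peak within 10 kb. The members and lists were chosen with earlier results of these data known. Searches for DR1 sequences outside peaks and in promoters were chosen after the peaks had been seen. The assignment and the sequence scan were tested on simulated data. Python 3.11.15, numpy 2.4.6, pandas 2.3.3, scipy 1.17.1, pysam 0.24.0 and matplotlib 3.10.9 were used.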

Additional observations from a re-analysis of the deposited data

How the results depend on the processing

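No paired analysis was possible because there is 1 ChIP library and no replicate. Of 60 counts under 10 alternatives, 40 were within 1.5 times the reported value or were 0 where the reported value was 0. A reported 0 has no ratio, and a narrower limit or a subset of peaks could not raise it. The 40 therefore overstate how stable the counts were. For the remaining counts the cause was not tested. Within 10 kb, 3 genes (Ebi3, Il17a and Lif) had 3 peaks, 1 of them with DR1, and 5 receptor genes had a peak. Of all protein-coding genes 3.38% had an assigned peak at that limit. When noncoding genes could also take a peak, 3 genes and 3 peaks remained, 1 with DR1: the peaks of Il1rn, Il12a and Tgfb3 and the more distant Lif peak went to noncoding or unclassified genes. The share of protein-coding genes alone was not computed for this setting, so these 3 genes have no background to be read against. Counting each gene within 100 kb gave 18 genes and 21 peaks, with 1 TH2 and TH9 product and 3 TH17 products. The share of all protein-coding genes was then 23.5%. DR1 was in 5 of these 21 peaks (23.8%, against 18.2% of all peaks) and AP-1 in 1 (4.76%, against 15.6%). In the rows before the midpoint of the file, which has no stated order, Il1rn and Lif had 2 peaks, 1 with DR1, and the TH17 count was 0. In those rows 2 of the 49 listed genes thus had a peak, near the 4.33% of all protein-coding genes. With 1 mismatch 0 of the 7 assigned peaks had DR1, against 6.07% of all peaks. In 400 bp windows 3 of the 7 had DR1, against 24.9% of all peaks. In the same windows 1 of the 7 had AP-1, at Il1rn, against 26.7% of all peaks. The TH17 count was 2 with Tgfb3 added. The TH1 count was 0 under all 7 alternatives to the assignment or the set of peaks. This outcome was fixed in advance: the nearest TH1 gene lay 155 kb from a peak, and no alternative reached beyond 100 kb. The file holds no strength for single peaks and 1 library gives no replicate error, so how firmly any one peak stands could not be measured.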
